A study of Mus musculus with 17 samples.

Results

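Transcripts of 10 genes known from natural killer (NK) cells were followed in whole MCA205 tumours: Klrd1, Klre1, Klra7, Klrk1, Klrc1, Klrb1c and Ncr1, which encode receptors, Nkg7 and Ctsw, which encode proteins of cytotoxic granules, and Il2rb, which encodes a cytokine receptor chain. They are 10 of 19057 genes with a symbol on the array and were found as the probes annotated with those symbols, 15 of 45281 in all. The genes were selected on their signal in day 7 responders and day 7 PBS tumours, where several of them differed. Every comparison with either of those 2 groups as a side is therefore described here without a test.

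MCA205 is a fibrosarcoma line that grows as a transplanted tumour in C57bl/6 mice. The mice were WT in every group, and palpable tumours received an injection of doxorubicin (DX, an anthracycline that damages DNA) or of PBS. The 17 arrays of bulk tumour RNA fall into 6 groups: day 2 DX (n = 2) and day 2 PBS (n = 3), day 7 DX responders (n = 3), day 7 DX non-responders (n = 3) and day 7 PBS (n = 3), and day 10 DX responders (n = 3). Day 7 DX tumours were sorted into responders and non-responders by whether the tumour shrank, so these labels rest on an outcome and not on a treatment. No PBS tumours of day 10 were analysed here. Nothing in the labels says whether replicates came from separate animals. The p-values set a difference of group means against the spread between replicate samples, estimated over all 6 groups. They cannot say whether that spread is one between animals.

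NK cells are lymphocytes that kill stressed, infected or malignant cells without prior priming. They weigh signals from inhibitory receptors, many of which bind MHC class I on healthy cells, against signals from activating receptors, and then release granules that hold perforin and granzymes. The family of Klr genes encodes lectin-like receptors of both kinds, most of them in the NK gene complex. Of the 10 genes, at least Klrd1, Klrk1, Nkg7, Ctsw and Il2rb are also made by activated CD8 T cells. In RNA of a whole tumour, fewer cells of a type and less RNA per cell cannot be told apart.

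The 6 Klr genes lie on chromosome 6, where Klre1, Klrd1 and Klrk1 follow each other directly in the RefSeq gene table. Ncr1 and Nkg7 lie on chromosome 7, Il2rb on chromosome 15 and Ctsw on chromosome 19. Promoter windows from 250 bases before to 50 bases after the start of a gene were available from RefSeq (GRCm38.p6) for 7 of the 10 genes, in 10 windows. Entries for Klrd1, Ctsw and Il2rb were not in the table. Windows were searched on both strands for the letters TGTGGT (reverse ACCACA), the core bound by RUNX factors, and TCACAC (reverse GTGTGA), a core of T-box factors, families with members that act in NK cell development. The RUNX letters stood in 16.8% and the T-box letters in 14.5% of 32851 windows of the same length. Of the 7 genes, 6 had the RUNX letters in at least 1 window and 3 (Klre1, Ncr1 and Nkg7) the T-box letters, while Klra7 had neither in its windows. A match describes letters only, and no binding was measured.

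The 4 windows below are shown because 3 belong to the genes that differed most between day 7 responders and day 7 PBS tumours (Klre1, Klra7 and Nkg7) and 1 to Ncr1, which has both letter groups and was not detected on any array. Each runs 5′ to 3′ along the gene's strand, and capitals mark the RUNX and T-box letters on either strand. Klre1 is at chr6:129577963-129578262 on the plus strand, Klra7 at chr6:130231638-130231937 on the minus strand, Nkg7 at chr7:43436888-43437187 on the plus strand and Ncr1 at chr7:4337465-4337764 on the plus strand.
Klre1: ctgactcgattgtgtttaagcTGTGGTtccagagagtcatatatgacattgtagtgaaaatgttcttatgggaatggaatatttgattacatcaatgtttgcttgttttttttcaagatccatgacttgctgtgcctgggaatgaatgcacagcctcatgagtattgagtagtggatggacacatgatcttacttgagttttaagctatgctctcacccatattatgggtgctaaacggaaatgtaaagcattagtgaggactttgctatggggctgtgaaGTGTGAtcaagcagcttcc
Klra7: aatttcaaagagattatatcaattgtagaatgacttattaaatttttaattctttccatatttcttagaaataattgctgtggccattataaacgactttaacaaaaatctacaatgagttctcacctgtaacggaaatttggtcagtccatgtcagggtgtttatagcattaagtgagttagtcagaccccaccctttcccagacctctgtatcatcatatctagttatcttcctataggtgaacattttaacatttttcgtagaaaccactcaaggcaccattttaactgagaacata
Nkg7: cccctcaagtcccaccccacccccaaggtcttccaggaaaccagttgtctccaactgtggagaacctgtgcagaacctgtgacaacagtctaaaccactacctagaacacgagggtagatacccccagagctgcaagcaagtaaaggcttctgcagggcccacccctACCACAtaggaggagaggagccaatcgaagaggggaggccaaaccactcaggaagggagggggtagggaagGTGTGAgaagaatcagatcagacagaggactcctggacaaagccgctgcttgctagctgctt
Ncr1: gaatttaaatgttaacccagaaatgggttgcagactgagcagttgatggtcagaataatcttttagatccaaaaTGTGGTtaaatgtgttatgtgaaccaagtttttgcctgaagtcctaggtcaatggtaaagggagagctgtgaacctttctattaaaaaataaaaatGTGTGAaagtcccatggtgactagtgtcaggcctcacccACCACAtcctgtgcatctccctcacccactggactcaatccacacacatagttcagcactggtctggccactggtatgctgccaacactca
The Klre1 window had the RUNX letters from base -229 and the T-box letters from base 32 relative to the start. In Nkg7 they began at bases -83 and -12. In Ncr1 the RUNX letters occurred at bases -176 and -41 and the T-box letters at base -80.

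A pair of arrays stood apart, both numbered 3, from day 7 and day 10 responders, and several of the differences below are also given without them. They were rich in muscle RNA: the summed linear signal of 12 muscle markers reached 70137 in day 7 responders and 57312 in day 10 responders, against at most 528 in non-responders, 464 in day 7 PBS, 2857 in day 2 DX and 3418 in day 2 PBS tumours. The other arrays of these 2 responder groups also had higher muscle sums than every non-responder and day 7 PBS array. The lowest and median sums were 975 and 2199 in day 7 responders, and 991 and 7414 in day 10 responders. Leaving out the arrays numbered 3 therefore does not remove the muscle difference. What muscle RNA added to the results was not tested. Within groups, arrays correlated over all tested genes at r of 0.965 to 0.991, and per array 13728 to 15568 probes were detected.

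Of the 10 genes, 5 gave a clear signal. A probe counted as detected where its detection p-value was under 0.01. Klrd1, Nkg7, Ctsw and 1 probe of Klra7 were detected on 17 of 17 arrays and Klre1 on 16 of 17, the exception being day 7 PBS replicate 2. Klrk1, which encodes the activating receptor NKG2D, was detected by its brightest probe on 5 of 17 arrays, and by its 3 other probes on 1, 0 and 0. Klrb1c, which encodes NK1.1, and Il2rb, the beta chain shared by the receptors of interleukins 2 and 15, were each detected on 1 array. Klrc1, the partner chain of Klrd1 in the inhibitory receptor NKG2A, and Ncr1, which encodes the activating receptor NKp46, were detected on 0 arrays. With a filter of 2 arrays, 6 of the 10 genes (8 of 15 probes) passed.

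**Figure D1:**
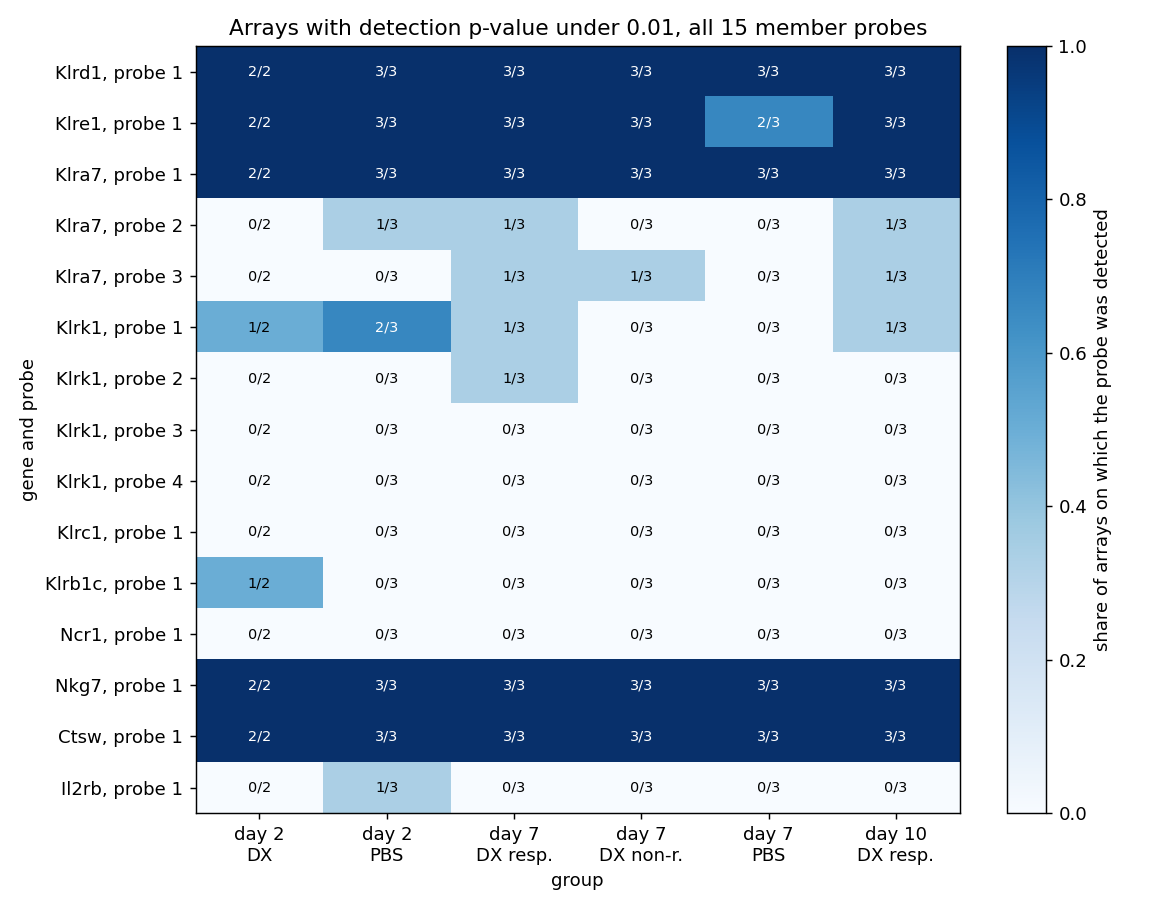
Share of arrays in each group on which each of the 15 probes was detected (detection p-value under 0.01), with the number of arrays in each cell. Klrd1, Klra7 probe 1, Nkg7 and Ctsw were detected on all 17 arrays, whereas Klrc1 and Ncr1 were detected on 0.

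Markers of NK cells were detected only in part. Of 6 genes on the list of NK cell markers, Klrd1, Klre1 and Klra7 were measured, Klrb1c was detected on 1 array, and Ncr1 and Eomes, a T-box factor of NK cells, on 0. Of the T cell markers, Cd3d, Cd3e, Cd3g, Cd8b1, Thy1 and Foxp3 were detected on 17 of 17 arrays and Cd4, Cd8a, Cd5 and Cd28 on 0. Which cells carried the 5 detected genes was not measured.

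Klrd1 encodes CD94, which pairs with NKG2 chains to bind the MHC class I molecule Qa-1. Its normalised log2 signal was 9.19, 9.43 and 9.23 in day 7 responders, 8.31, 8.90 and 7.73 in non-responders and 7.34, 7.65 and 8.52 in day 7 PBS tumours. It was 8.42, 8.51 and 8.99 in day 10 responders, 7.99 and 7.75 in day 2 DX and 7.75, 7.36 and 7.71 in day 2 PBS tumours. All 3 day 7 responders lay above all 14 other arrays, and the day 10 responders lay above all day 2 arrays.

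Klre1 encodes NKG2I, a lectin-like receptor that forms dimers with other Klr chains. Its signal was 7.35, 7.51 and 7.31 in day 7 responders, 6.80, 6.95 and 5.95 in non-responders and 5.54, 5.00 and 6.61 in day 7 PBS tumours. It was 6.34, 6.30 and 7.19 in day 10 responders, 6.04 and 5.47 in day 2 DX and 5.97, 5.90 and 6.10 in day 2 PBS tumours. Here too the 3 day 7 responders were above all other arrays.

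Klra7 encodes Ly49G, an inhibitory receptor for classical MHC class I. Its brightest probe had 8.04, 8.39 and 8.10 in day 7 responders, 7.23, 8.24 and 7.50 in non-responders and 6.40, 5.94 and 7.56 in day 7 PBS tumours. The same probe had 7.59, 7.18 and 7.93 in day 10 responders, 6.90 and 6.36 in day 2 DX and 6.65, 6.68 and 6.29 in day 2 PBS tumours. Responders overlapped with non-responders here, through non-responder replicate 2. The 2 other Klra7 probes, each detected on 3 of 17 arrays, were higher in day 7 responders than in day 7 PBS tumours by 0.35 and 0.55 on the log2 scale, against 1.54 for the brightest. Ly49 genes are close relatives in sequence, and which of their transcripts each probe binds was not tested.

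Nkg7 encodes a granule membrane protein of cytotoxic lymphocytes. Its signal was 8.84, 8.99 and 8.78 in day 7 responders, 7.94, 8.59 and 7.45 in non-responders and 6.87, 7.08 and 8.04 in day 7 PBS tumours. It was 7.97, 8.35 and 8.92 in day 10 responders, 7.68 and 6.60 in day 2 DX and 6.78, 6.67 and 7.17 in day 2 PBS tumours. The 3 day 7 responders were above every non-responder and every PBS array but overlapped with the day 10 responders.

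Ctsw encodes cathepsin W, a cysteine protease of cytotoxic lymphocytes. Its signal was 8.44, 8.30 and 8.39 in day 7 responders, 7.61, 8.05 and 7.21 in non-responders and 6.70, 6.71 and 7.72 in day 7 PBS tumours. It was 7.85, 7.28 and 8.41 in day 10 responders, 7.16 and 6.95 in day 2 DX and 7.06, 6.85 and 7.16 in day 2 PBS tumours. Day 7 responders again overlapped only with day 10 responders.

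The other genes stayed near background. Klrk1 had 5.13, 4.95 and 5.35 in day 7 responders, 4.42, 5.12 and 4.62 in non-responders and 4.74, 4.91 and 4.83 in day 7 PBS tumours. It had 4.71, 5.06 and 5.48 in day 10 responders, 5.09 and 5.34 in day 2 DX and 5.50, 5.21 and 5.05 in day 2 PBS tumours. Of these, 1 day 7 responder, 1 day 10 responder, 1 day 2 DX and 2 day 2 PBS arrays were detected, so its values give mostly the height of the background. Its other probes differed between day 7 responders and day 7 PBS by 0.64, -0.28 and 0.01. Group means of Klrc1 ranged over 4.44 to 4.63, of Klrb1c over 4.71 to 5.06, of Ncr1 over 4.35 to 4.50 and of Il2rb over 4.60 to 4.98.

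**Figure D2:**
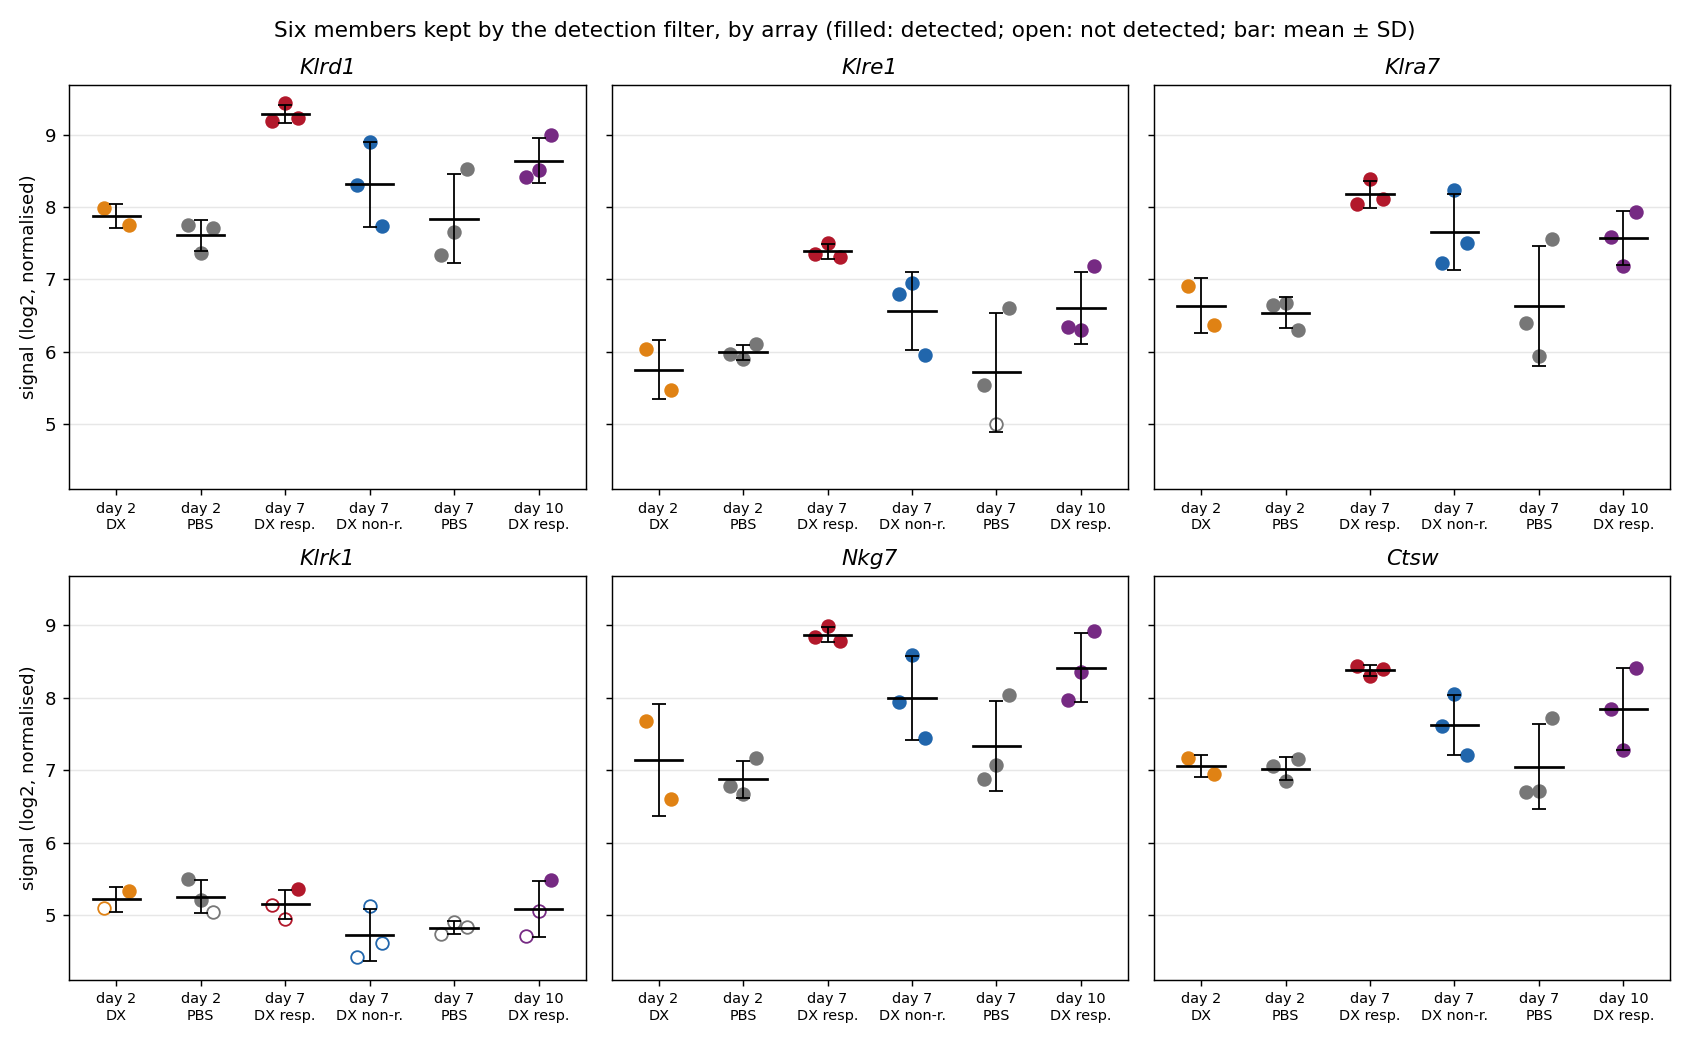
Normalised log2 signal of the 6 genes that passed the detection filter, 1 point per array, by group, with group mean and SD. Filled points are detected and open points are not. Day 7 responders are the highest group for Klrd1, Klre1, Klra7, Nkg7 and Ctsw, whereas Klrk1 stays between 4.42 and 5.50.

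In order of group means, day 7 responders came first for all 5 detected genes: Klrd1 9.29 ± 0.13, Klre1 7.39 ± 0.10, Klra7 8.18 ± 0.19, Nkg7 8.87 ± 0.10 and Ctsw 8.38 ± 0.07 (SD, n = 3). The SD of the same genes was 0.42 to 0.59 in non-responders and 0.59 to 0.83 in day 7 PBS tumours. Neighbours in the order separated without overlap only between day 7 responders and day 10 responders for Klrd1 and Klre1, and between non-responders and day 2 DX for Ctsw. All other neighbouring groups overlapped.

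The 5 genes varied together. Over the 17 arrays their 10 pairs correlated with Pearson's r from 0.897 to 0.960, and after subtraction of group means with r from 0.702 to 0.891. Genes read on the same array share its RNA, hybridisation and scaling, and these correlations, given over all arrays only, are a description. Klrk1 correlated with the 5 at 0.03 to 0.17. Non-responder replicate 2 had all 6 genes above their overall means, and day 7 PBS replicate 3 had 5 of 6. The other 2 day 7 PBS arrays had 0 of 6.

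Day 7 responders were set against day 7 PBS tumours to describe the contrast that brought the genes to notice. Klre1 was higher by 1.67 on the log2 scale (3.18-fold), Nkg7 by 1.54 (2.91-fold), Klra7 by 1.54 (2.91-fold), Klrd1 by 1.45 (2.73-fold) and Ctsw by 1.33 (2.52-fold). Klrk1 was not detected on any day 7 PBS array and has no fold. All 6 genes that passed the filter had groups that did not overlap, where 11.2% of all 12451 tested genes did not overlap in that direction; the choice of genes used this contrast, and nothing is read from it. The 4 other genes differed by 0.02 to 0.24 and overlapped. Over all 10 genes the median difference was 0.83, against 0.01 over all tested genes and -0.01 over all genes without the filter. It lies between the genes near background and the detected genes, and is the difference of neither. The median was 1.06 within BeadChip 3 (1 array of each group), 0.68 with the BeadChip as a block and 0.79 without the muscle-rich array.

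Non-responders lay between. Against day 7 PBS tumours, Klra7 was higher by 1.02, Klre1 by 0.85, Nkg7 by 0.67, Ctsw by 0.58 and Klrd1 by 0.48, and every one of them overlapped. The median of the 10 genes was 0.32, against 0.02 over all tested genes, and 0.17 within BeadChip 2. No gene was without overlap, beside 8.45% of all tested genes in the higher direction. Against non-responders, day 7 responders were higher by 0.97 for Klrd1, 0.88 for Nkg7, 0.82 for Klre1 and 0.75 for Ctsw, without overlap (5.51% of all tested genes in that direction), and by 0.52 for Klra7 with overlap. The median of the 10 was 0.47 (-0.0027 over all tested genes), 0.44 without the muscle-rich array, and 0.20 within BeadChip 1, which holds 2 responders and non-responder replicate 2. Without that replicate it was 0.72. The 2 contrasts share the non-responder arrays, and each of them shares arrays with the contrast above.

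Day 10 responders were lower than day 7 responders in Klre1 by 0.78 on the log2 scale, in Klrd1 by 0.65 and in Klra7 by 0.61, without overlap (4.44% of all tested genes in the lower direction). Ctsw and Nkg7 were lower by 0.53 and 0.46 with overlap, and the day 10 array with the highest values for the 5 genes was the muscle-rich replicate 3. The median of the 10 genes was -0.30 (-0.01 over all tested genes), -0.17 within BeadChip 1 and -0.34 within BeadChip 3, and -0.49 without both muscle-rich arrays. Klrc1 did not overlap in the higher direction (2.79%) but was undetected on all arrays. In PBS tumours the median difference of day 7 from day 2 was 0.04 (-0.02 over all tested genes), 0.00 within BeadChip 2 and -0.25 within BeadChip 3. It was -0.27 without day 7 PBS replicate 3. Klrk1 was lower there without overlap (12.1%), and was detected on 0 of the day 7 and 2 of the day 2 PBS arrays. Day 7 responders against day 2 DX gave a median of 0.67 (0.03 over all tested genes, 0.65 without the muscle-rich array, 0.62 within BeadChip 1 and 0.87 within BeadChip 3), with all 5 detected genes higher and without overlap (19.4%).

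The tests concern 4 comparisons in which neither day 7 responders nor day 7 PBS tumours are a compared group. These are day 2 DX against day 2 PBS, non-responders and day 10 responders each against day 2 DX, and day 10 responders against non-responders. They share the day 2 DX, non-responder or day 10 arrays among themselves. The spread behind their intervals and p-values was estimated over all 6 groups. Arrays of day 7 responders and day 7 PBS tumours enter that spread. The tests are therefore not independent of the arrays used to choose the genes. In limma with Benjamini-Hochberg adjustment over 12451 genes, 0 of the 6 genes passed an adjusted p of 0.05 in each of the 4.

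On day 2 the DX and PBS arrays overlapped for all 6 genes. Differences ran from -0.24 for Klre1 to 0.27 for Nkg7, with adjusted p = 0.999 for all 6 (limma) and 0 of 6 at an unadjusted p under 0.05. The interval for Nkg7 was -0.51 to 1.05 and that for Klre1 -1.05 to 0.57, so changes of about a log2 unit lie within the error of these arrays. With the BeadChip as a block, Nkg7 differed by 0.03 and Klre1 by -0.44. Of all genes, 66 were called higher (0.530%) and 10 lower (0.0803%).

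In non-responders on day 7 the 5 detected genes were above day 2 DX. Klra7 was higher by 1.02 (95% interval 0.25 to 1.80, adjusted p = 0.161), Nkg7 by 0.86 (0.08 to 1.64, adjusted p = 0.234) and Klre1 by 0.81 (0.00 to 1.62, adjusted p = 0.273). These 3 of 6 were at an unadjusted p under 0.05, and 2255 of 12451 genes were. Ctsw differed by 0.57 (adjusted p = 0.354) and Klrd1 by 0.44 (adjusted p = 0.468). Klrk1 was not detected on any non-responder array and has no fold (adjusted p = 0.335). Klra7 and Ctsw did not overlap between the groups, beside 21.0% of all tested genes. Within BeadChip 1 (an array per group) the 5 genes differed by 0.89 to 1.33. The non-responder there was replicate 2, the highest of the non-responders for each of the 5 genes. The number of all genes called was 58 higher (0.466%) and 91 lower (0.731%).

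In day 10 responders the 5 detected genes were also above day 2 DX. Nkg7 was higher by 1.28 (0.50 to 2.06, adjusted p = 0.1002), which is 2.42-fold, Klra7 by 0.93 (adjusted p = 0.246), Klre1 by 0.85 (adjusted p = 0.317), Ctsw by 0.79 (adjusted p = 0.247) and Klrd1 by 0.77 (adjusted p = 0.255). All 5 had groups without overlap, beside 15.8% of all tested genes in that direction, and all 5 were at an unadjusted p under 0.05, as were 1800 of 12451 genes. Without both muscle-rich arrays the differences were 1.02 for Nkg7 (adjusted p = 0.354), 0.75 for Klra7, 0.60 for Klrd1, 0.57 for Klre1 and 0.51 for Ctsw. Nkg7 differed by 0.77 within BeadChip 1 and 1.76 within BeadChip 3, and Ctsw by 0.97 and 0.34. Genes called over the whole array numbered 59 higher (0.474%) and 99 lower (0.795%).

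Between day 10 responders and non-responders no gene of the 6 differed by more than 0.42 (Nkg7, -0.28 to 1.12), with adjusted p of 0.758 or more and 0 of 6 at an unadjusted p under 0.05. Only 1 of all genes was called, lower (0.00803%), and 960 were at an unadjusted p under 0.05. For Klra7 the difference was -0.09 (-0.78 to 0.60). Without the muscle-rich arrays the 6 genes differed by -0.27 (Klra7) to 0.17 (Klrk1).

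**Figure D3:**
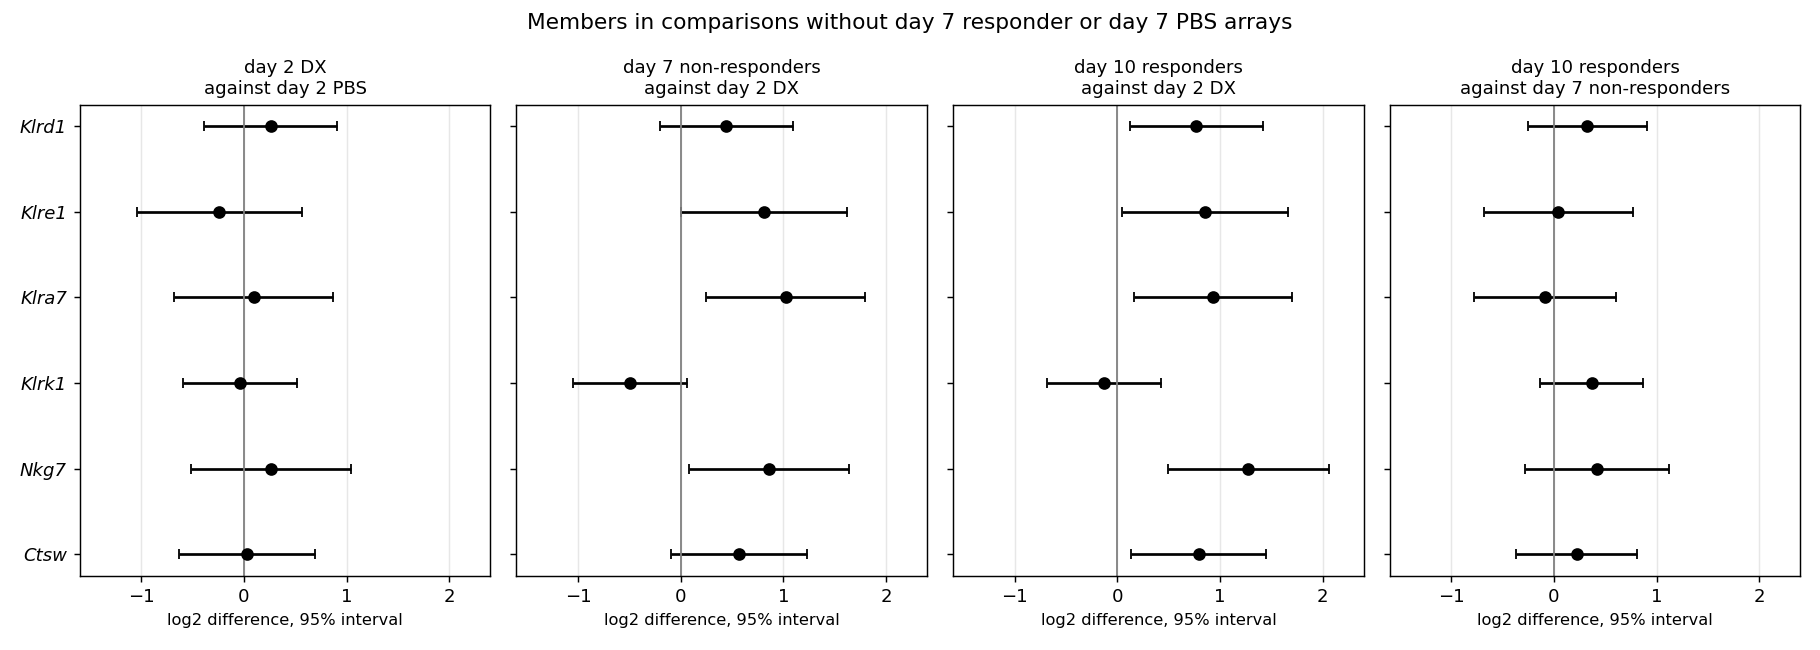
Log2 differences of the 6 genes with 95% intervals in the 4 tested comparisons. Intervals for Nkg7, Klra7 and Klre1 exclude 0 in both comparisons with day 2 DX, and 0 of 6 genes pass an adjusted p of 0.05 in any of the 4.

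Calls appeared with limma's array weights, which give noisier arrays less influence. Klra7 then had adjusted p = 0.0415 in non-responders against day 2 DX, over alternatives from 0.0415 to 0.572. Nkg7 and Ctsw had adjusted p = 0.046 and 0.0399 in day 10 responders against day 2 DX, over alternatives from 0.046 to 0.671 and 0.0399 to 0.677. The 5 detected genes kept the higher direction in all 20 alternatives of the first comparison and all 21 of the second. Their smallest differences in the first were 0.02 for Klrd1, 0.13 for Ctsw, 0.31 for Nkg7, 0.32 for Klre1 and 0.57 for Klra7. In the second they ran from 0.34 (Klre1) to 0.73 (Nkg7).

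Granule genes outside the 10 gave calls in the same comparisons. Of 12 measured among 19 listed genes of granules and death ligands, 3 rose in day 10 responders against day 2 DX and 1 in non-responders, with list medians of 0.32 and 0.24, against 0.01 and 0.03 over all tested genes. Gzmg, a granzyme, rose by 4.64 in day 10 responders (10.01 ± 0.82 against 5.37 ± 0.39, adjusted p = 9.66e-04) and by 3.26 in non-responders (adjusted p = 0.0124). Gzmd, another granzyme, rose by 3.16 in day 10 responders (12.34 ± 0.46 against 9.19 ± 0.47, adjusted p = 0.0087), and Prf1, perforin, by 1.16 (9.80 ± 0.36 against 8.64 ± 0.22, adjusted p = 0.021). In PBS tumours, compared without a test, Gzmg was higher on day 7 than on day 2 by 3.06 (8.38 ± 1.27 against 5.32 ± 0.21), Gzmd by 2.55 and Prf1 by 0.06. Against day 7 PBS tumours, Gzmg differed by 1.05 in day 7 responders and 0.25 in non-responders, Gzmd by 1.21 and 0.65, and Prf1 by 0.78 and 0.61. In all 19 alternatives Gzmg kept its day 10 call. Without day 2 DX replicate 1 or 2 the adjusted p was 0.0811 and 0.149 for Gzmd, 0.115 and 0.259 for Prf1, and 0.164 and 0.145 for Gzmg in non-responders, where it was 0.0535 without non-responder replicate 2.

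T cell markers gave 2 calls in the same comparison, with a median of 0.32. Of 9 measured among 15, Cd3e rose by 1.25 (adjusted p = 0.0246) and Cd3g by 1.20 (adjusted p = 0.017) in day 10 responders against day 2 DX; both encode chains of the CD3 complex of the T cell receptor. Without day 2 DX replicate 1, day 2 DX replicate 2 or day 10 replicate 3 the adjusted p was 0.266, 0.112 and 0.0884 for Cd3e, and 0.115, 0.219 and 0.0574 for Cd3g. The summed linear signal of the T cell markers was 3811 to 4168 in day 7 responders, 3309 to 3803 in non-responders and 2904 to 3328 in day 7 PBS tumours. It was 3294 to 4355 in day 10 responders, 2933 to 3371 in day 2 DX and 3187 to 3519 in day 2 PBS tumours. Day 7 responders thus lay above both other day 7 groups, but above non-responders only narrowly (3811 against 3803). Thy1, 1 of the 9 genes in the sum, had log2 group means of 10.09 in day 7 responders, 9.20 in non-responders and 8.94 in day 7 PBS tumours. Whether the other T cell markers separated these groups without Thy1 was not tested. Klrd1, Klre1 and Klra7 were the 3 measured genes of the NK cell list. Of these, at least Klrd1 is also made by activated CD8 T cells. The sum of the 3 was 1011 to 1207 in day 7 responders, 456 to 905 in non-responders and 293 to 654 in day 7 PBS tumours. All 3 belong to the genes selected on day 7 responders and day 7 PBS tumours, so nothing is read from this order. The part of T cells in the values of Klrd1, Klre1, Klra7, Nkg7 and Ctsw was not tested.

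Some macrophage and leukocyte markers fell. Of 8 measured among 10 macrophage markers, Adgre1, C1qa and C1qc fell in day 10 responders against day 2 DX, by 1.39, 1.10 and 0.92 (adjusted p = 0.0247, 0.0127 and 0.0475), and Cd52 fell by 0.67 among 6 leukocyte genes (adjusted p = 0.0247). Summed leukocyte signal was 6740 to 9423 in day 10 responders and 11631 to 11965 in day 2 DX tumours. It was 9157 to 10658 in day 7 responders and 8368 to 10234 in day 7 PBS tumours, which overlap. Each of these 4 calls ended without day 2 DX replicate 1 (adjusted p = 0.0939 for Adgre1, 0.17 for C1qa, 0.213 for C1qc and 0.19 for Cd52) and without day 2 DX replicate 2 (0.354, 0.103, 0.402 and 0.209), and those of Adgre1, C1qa and C1qc also without day 10 replicate 3 (0.0916, 0.0508 and 0.106), C1qc also without day 10 replicate 2 (0.0577). No muscle, skin, neutrophil or fibroblast marker was called in the 4 comparisons, of 12, 5, 3 and 6 measured, and no B cell marker passed the filter.

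**Figure D4:**
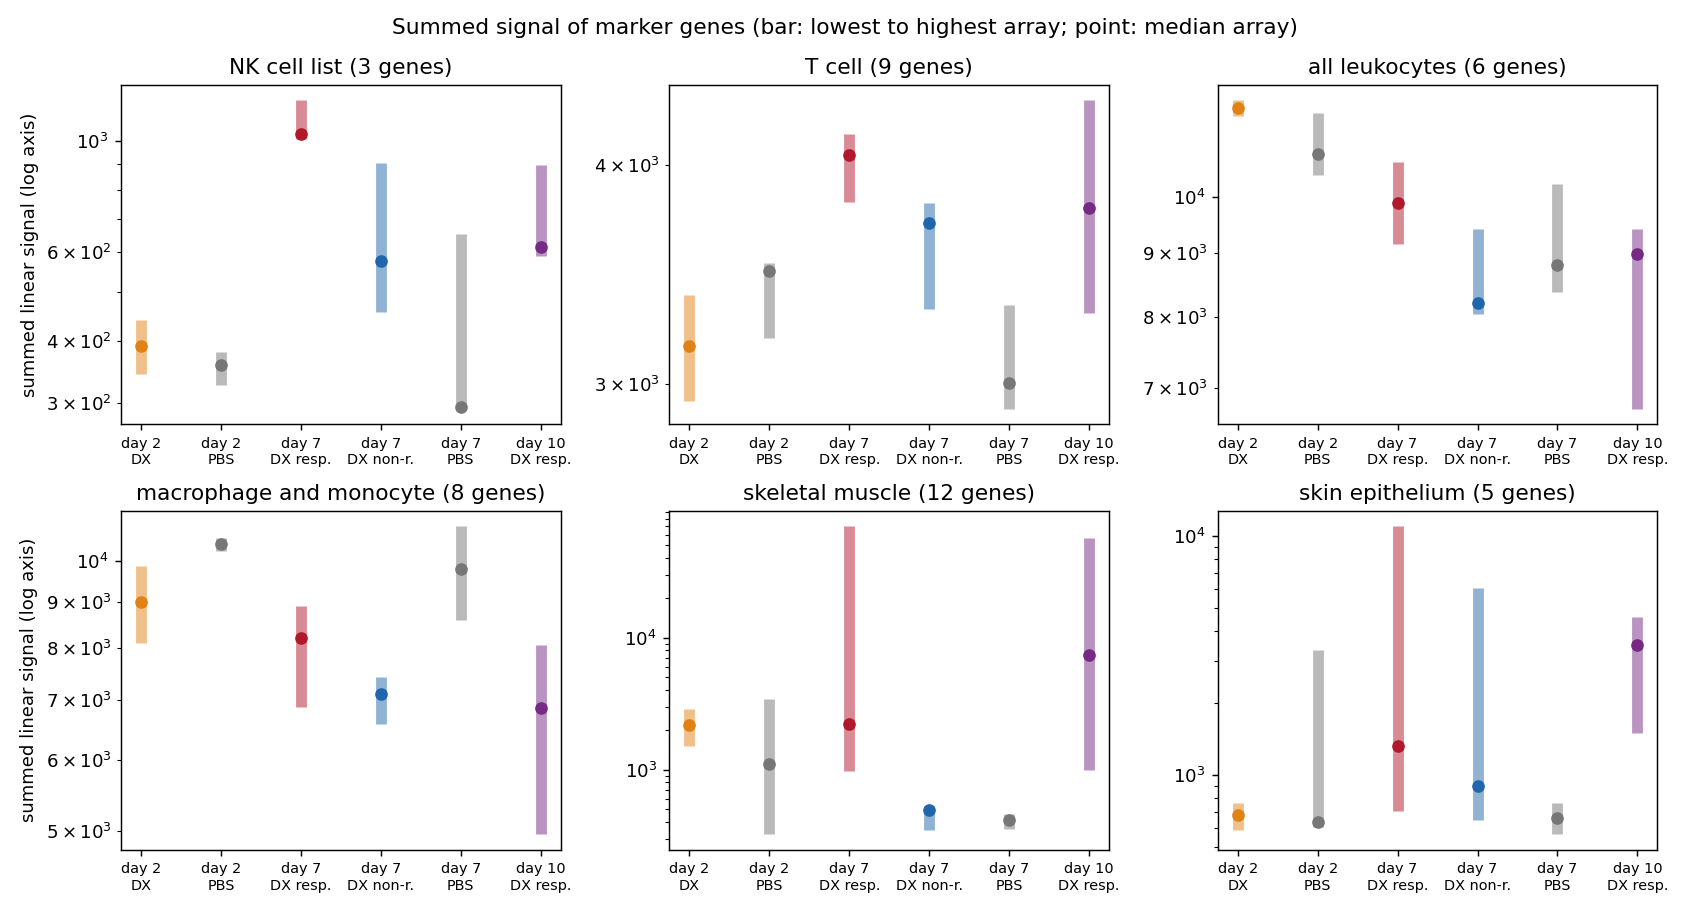
Summed linear signal of marker genes by group on a log axis (bar: lowest to highest array, point: median array). The median sums of the NK cell list (Klrd1, Klre1 and Klra7) and of the T cell markers are highest in day 7 responders. Klrd1, Klre1 and Klra7 were selected on day 7 responders and day 7 PBS tumours, so nothing is read from the height of their sum. The muscle sum reaches 70137 in day 7 responders and 57312 in day 10 responders.

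A cytokine and a chemokine of NK cell biology were called on day 2, when 0 of the 6 tested genes were. Of 15 measured genes among 23 listed, Il15, a survival factor of NK cells, rose by 1.30 in day 2 DX against PBS tumours (10.72 ± 0.43 against 9.42 ± 0.24, adjusted p = 0.0104), and Ccl4, a chemokine made by activated lymphocytes and macrophages, by 1.46 (10.45 ± 0.53 against 8.99 ± 0.13, adjusted p = 0.00121). Ccl5, another such chemokine, differed by 1.35 (adjusted p = 0.113). The list's median was 0.18, against -0.02 over all tested genes. The calls ended without day 2 DX replicate 1 (adjusted p = 0.584 for Il15 and 0.117 for Ccl4), and that of Il15 also without PBS replicate 2 (0.052) or 3 (0.0712). None of the 15 was called in the other 3 tested comparisons.

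Of 26 NK receptor genes outside the 10, 10 were measured. Their median difference was 0.38 in day 7 responders against day 7 PBS tumours (8 of 10 above 0) and -0.24 in day 10 against day 7 responders (1 of 10 above 0), both without a test. In the tested comparisons it was 0.15 in day 2 DX against PBS tumours, 0.11 in non-responders and -0.03 in day 10 responders against day 2 DX, and -0.04 in day 10 responders against non-responders (-0.02, 0.03, 0.01 and -0.01 over all tested genes). Cd69, an early activation marker, rose by 1.13 in day 2 DX against PBS tumours (adjusted p = 0.0346) and fell by 1.10 in day 10 responders against day 2 DX (adjusted p = 0.0316). Klra2, a Ly49 relative that myeloid cells also make, fell by 1.16 in day 10 responders against day 2 DX (adjusted p = 0.0475). Klrg1, an inhibitory receptor of mature effector cells, was detected on 3 of 3 arrays of day 10 responders and on 0 of 2 day 2 DX arrays. Klrg1 was not called in any tested comparison (smallest limma adjusted p = 0.224). The day 2 call of Cd69 ended without any 1 of the 5 arrays compared (adjusted p from 0.099 to 0.81) and with the BeadChip as a block (0.0968), its fall without day 2 DX replicate 1 (0.314), day 2 DX replicate 2 (0.119) or day 10 replicate 1 (0.087). Klra2 lost its call without day 2 DX replicate 1 (0.229), day 2 DX replicate 2 (0.378), day 10 replicate 1 (0.108) or day 10 replicate 2 (0.0595).

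Among adaptors and signalling genes, 11 of 18 were measured. Fcer1g, a signalling chain shared by Fc receptors and NK receptors and also made by macrophages, fell by 0.67 in day 10 responders against day 2 DX (adjusted p = 0.0475), and the call ended without day 2 DX replicate 1 (0.312), day 2 DX replicate 2 (0.248), day 10 replicate 1 (0.113) or day 10 replicate 2 (0.0581). Sh2d2a, an adaptor of activated T and NK cells, was higher by 0.89 in day 10 responders (adjusted p = 0.254) and by 0.79 in non-responders (adjusted p = 0.247). None of the 4 measured of 12 transcription factors of the lineage was called. Id2, a regulator of innate lymphocytes, was higher by 0.98 in day 2 DX against PBS tumours (adjusted p = 0.328), whereas Eomes, Runx3, Tox and Prdm1 were detected on 0 arrays and Tbx21 on 1. Of 16 listed ligands 5 were measured and 0 were called. H2-T23, which encodes the Qa-1 molecule that CD94 receptors bind, was higher by 0.65 in day 2 DX against PBS tumours (adjusted p = 0.23) and lower by 0.72 on the log2 scale in non-responders against day 2 DX (adjusted p = 0.0718). The NKG2D ligands Raet1d, Raet1e and Ulbp1 were detected on 0 arrays.

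Genes outside the list that tracked it most closely were found by Pearson's r over 17 arrays with the mean standardised signal of the 6 genes, as a description. They were Trbv13-2, a T cell receptor beta variable segment (0.93), Sh2d2a (0.93), and Thy1, a surface protein on the list of T cell markers (0.90). Next came Fgf10, a fibroblast growth factor (0.90), Ptpn22, a phosphatase of lymphocytes (0.90), and Ugt1a10, a glucuronosyltransferase (0.90). The last were Slc39a13, a zinc transporter (0.90), and Enc1, an actin-binding protein (0.89). Which cells carried Thy1 was not measured. After subtraction of group means the 8 correlations were 0.75 to 0.89. Trbv13-2 had group means of 7.89 in day 7 responders, 6.84 in non-responders and 6.65 in day 7 PBS tumours.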

How the data were processed

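Total RNA of whole MCA205 tumours was hybridised to 1-colour Illumina BeadChips (17 arrays on 3 BeadChips). The groups were spread unevenly over them. BeadChip 2 held only day 2 PBS replicate 1, day 7 PBS replicates 2 and 3 and non-responder replicates 1 and 3. BeadChip 1 held no PBS array and BeadChip 3 no non-responder array. Group and BeadChip can therefore not be fully told apart. The authors deposited, per the file headers, a signal intensity and a detection p-value per probe, on a linear scale before normalization, without stating how the detection p-value arose. The submitters' processing notes name GenomeStudio 2011.1. The authors' second deposited table gives intensity values they had processed, with unstated steps and column medians of 119.6 to 119.7; it served as an alternative, and 17 of 17 columns ranked probes most like their own array.

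The signals went through neqc, which corrects background and quantile-normalizes (limma 3.58.1, R 4.3.3; offset 16, negative controls inferred from detection p-values), on the log2 scale. The offset draws fold changes of dim probes towards 1. Kept were the 17674 of 45281 probes that 2 or more arrays detected (p under 0.01), each gene being represented by its brightest kept probe (12451 genes, of which 2416 are probes without a symbol). Symbols came from the platform annotation, which gave 34885 probes 1 symbol, 18 several and 10378 none; 34807 matched RefSeq by gene ID and 0 symbols changed. For medians over the 10 genes, the brightest probe was used whether or not it passed. These medians therefore include the genes near background, while the medians over all tested genes cover kept probes only. Limma fitted the means of the 6 groups to all 17 arrays together, with a trend of variance on mean (11 residual and 6.98 prior degrees of freedom), Benjamini-Hochberg adjusted, called at 0.05. Their number limits the precision. The fit was also run on simulated data with independent noise. Those data held no BeadChip or muscle effects and cannot speak to them.

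The genes and lists were chosen with earlier results of these data known. Named beside them are up to 4 genes of each list (called ones first, then the brightest), the 8 genes most like them in pattern, and others chosen after their values were seen. Alternatives covered the filter, background, offset, scaling, BeadChip and replicate blocks, array weights, trend, the arrays in the fit and leaving out each array. Same-numbered arrays correlated at r = -0.22 to 0.54 in their deviations (8 of 40 pairs over 0.1). The highest was that of the muscle-rich arrays, replicate 3 of the day 7 and day 10 responders. Differently numbered arrays were not compared, so this cannot exclude pairing. The samples were treated as unpaired.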

Additional observations from a re-analysis of the deposited data

How the results depend on the processing

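In the 4 tested comparisons 0 of 6 genes were called under every alternative except array weights, which called 1 in non-responders against day 2 DX and 2 in day 10 responders against day 2 DX. The number of all genes called moved more. In day 2 DX against PBS (76) it was 42 with median scaling, 250 with array weights, 45 without the trend, 168 with the compared groups only and 11 to 67 without any 1 array, the lowest without day 2 DX replicate 1. In non-responders against day 2 DX (149) it was 98 with no filter, 403 with median scaling, 892 with array weights, 78 without the trend and 9 to 178 without any 1 array, the lowest again without day 2 DX replicate 1. In day 10 responders against day 2 DX (158) it was 1012 with array weights, 21 with the compared groups only and 22 to 597 without any 1 array, lowest without day 2 DX replicate 1 and highest without day 10 replicate 2. In day 10 responders against non-responders (1) it was 4 with no filter, 7 with all kept probes, 0 with the BeadChip block or the compared groups only, 2 with the stricter filter, the authors' processed table, median scaling, the random BeadChip block, array weights, no trend or no muscle-rich arrays, and 0 to 7 without any 1 array. With the replicate number as a block, 84 genes were called in non-responders against day 2 DX and 2 in day 10 responders against non-responders. It called 0 of 6 genes in each comparison.

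Median differences over the 10 genes that moved beyond the replicate spread did so without background correction (0.42 in day 7 responders against PBS, 0.23 against non-responders and 0.37 against day 2 DX), with the authors' processed table (0.47, 0.25 and 0.41 in the same order), within BeadChip 1 (0.20 against non-responders) or BeadChip 3 (0.87 against day 2 DX and -0.25 for PBS tumours on day 7 against day 2), and with median scaling (-0.43 for the PBS tumours). Single arrays also moved a median beyond that spread. This held for responders against non-responders without non-responder replicate 2 (0.72), and for the PBS tumours without day 7 PBS replicate 3 (-0.27). Leaving out each array gave 0.76 to 1.00 for responders against PBS, 0.16 to 0.54 for non-responders against PBS and 0.29 to 0.72 for responders against non-responders. It gave -0.49 to -0.11 for day 10 against day 7 responders, -0.27 to 0.10 for PBS tumours and 0.62 to 0.81 for responders against day 2 DX. Median scaling also moved the median of all tested genes, by 0.37 in responders against PBS, where the median of the 10 was then 1.06, and by -0.54 in the PBS tumours. The cause of these shifts was not tested. Of the 12 list genes called in day 10 responders against day 2 DX, 10 lost the call with the compared groups only (adjusted p from 0.107 to 0.266), Gzmg and Gzmd being the exceptions. With median scaling 5 did (Prf1 0.153, Cd3g 0.117, Fcer1g 0.0749, Cd52 0.0739 and Cd3e 0.0719), without the trend 7 (up to 0.105), with the replicate block 4 (up to 0.0781), and without the muscle-rich arrays Adgre1 (0.0896), C1qa (0.0621) and C1qc (0.112). No filter, no background correction and the authors' processed table ended 2 each. Gzmg in non-responders lost its call without background correction (0.0799) and with the authors' processed table (0.0689), and Cd69 on day 2 with median scaling (0.0885), without the trend (0.0793) and with the replicate block (0.0594). Signal close to background limits Klrk1, Klrc1, Klrb1c, Ncr1 and Il2rb.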
